A study of Mus musculus with 2 samples.

Results

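The Hes, Hey and Id genes Hes1, Hes5, Hey1, Hey2, Heyl, Id1, Id2, Id3 and Id4 were examined for chromatin accessibility in late retinal progenitor cells (RPCs) with and without Ngn3 overexpression (Ngn3-OE). Peaks were assigned to a gene when their summit, the point of highest signal, lay in the GENCODE gene body or within 50 kb on either side of it. The 9 windows held 115 of the 117165 control peaks and 114 of the 124935 Ngn3-OE peaks. No summit lay in the windows of more than 1 member.

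Accessibility was measured by ATAC-seq, which reads out where the Tn5 transposase could insert its adapters, that is, DNA free of nucleosomes. Late RPCs of mouse pups received a control plasmid or an Ngn3 plasmid by in vivo electroporation at postnatal day 1, and the GFP-positive cells were sorted from the retina at day 2 after electroporation. Both groups therefore went through electroporation and carried GFP, and differed in the Ngn3 plasmid; the strain, the promoter of the plasmids and the number of pooled pups are not given in the sources used here. Each group was 1 library, so no difference below was tested against the variation between animals, and every interval given covers counting error alone.

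Hes and Hey proteins are basic helix-loop-helix (bHLH) repressors and are the best known targets of Notch signalling, in which the cleaved receptor joins the DNA-binding protein RBPJ at its target genes. Id proteins have the helix-loop-helix part without the DNA-binding basic part, are targets of BMP signalling, and bind the E proteins that proneural factors such as Ngn3 need as partners. In the retina Hes1, Hes5 and Id genes are known for keeping progenitors undifferentiated and for their use in Müller glia, and Heyl and Hey2 are further members of the Notch-responsive set.

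The peaks that the results turn on are printed here from the RefSeq sequence of GRCm38.p6, which is the build mm10 of the peak lists, on the plus strand and 5′ to 3′. They are the strongest start-site peak of Hes1 and those shared peaks at or upstream of Hes1, Hes5, Hey1 and Id1 whose counting interval excluded 0. The changed pair in the Heyl body and, for each library, the peak of highest −log10 q found in only 1 library are also printed. Capitals mark the RBPJ core GTGGGAA and the E-box core CATCTG, each on either strand (TTCCCAC and CAGATG on the other one). At most 300 bases are shown, without untranslated regions, which leaves out the peak over the Hes5 start. Other changed peaks are given by position and values only. Of the 40-base words taken every 20 bases from these peaks, all occurred once in the 21 chromosomes.
Hes1 start site, chr16:30065082-30065339: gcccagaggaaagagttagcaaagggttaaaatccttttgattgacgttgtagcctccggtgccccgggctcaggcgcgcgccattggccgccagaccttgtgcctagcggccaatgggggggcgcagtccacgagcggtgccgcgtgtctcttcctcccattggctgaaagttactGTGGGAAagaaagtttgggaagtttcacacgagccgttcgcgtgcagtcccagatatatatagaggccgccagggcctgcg
Hes1 at 26.5 kb upstream, chr16:30038685-30038984: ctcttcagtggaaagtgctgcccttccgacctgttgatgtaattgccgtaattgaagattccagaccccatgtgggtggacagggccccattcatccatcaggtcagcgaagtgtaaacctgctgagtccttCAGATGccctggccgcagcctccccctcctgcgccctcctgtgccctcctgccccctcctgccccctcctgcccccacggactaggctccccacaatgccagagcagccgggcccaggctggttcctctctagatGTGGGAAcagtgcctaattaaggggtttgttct
Hes5 at 208 bp upstream, chr4:154960585-154960835: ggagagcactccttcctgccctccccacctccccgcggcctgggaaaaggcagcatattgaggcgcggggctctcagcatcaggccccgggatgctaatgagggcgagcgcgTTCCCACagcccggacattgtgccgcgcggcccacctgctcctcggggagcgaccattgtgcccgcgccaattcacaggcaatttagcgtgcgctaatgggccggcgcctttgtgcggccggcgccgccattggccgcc
Hes5 at 2.5 kb upstream, chr4:154958280-154958523: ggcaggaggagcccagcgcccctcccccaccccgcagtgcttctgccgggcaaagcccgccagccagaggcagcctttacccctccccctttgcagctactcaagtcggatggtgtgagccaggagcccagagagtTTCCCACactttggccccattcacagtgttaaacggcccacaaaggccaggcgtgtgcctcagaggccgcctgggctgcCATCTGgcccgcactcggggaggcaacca
Hey1 at 31.2 kb upstream, chr3:8698378-8698549: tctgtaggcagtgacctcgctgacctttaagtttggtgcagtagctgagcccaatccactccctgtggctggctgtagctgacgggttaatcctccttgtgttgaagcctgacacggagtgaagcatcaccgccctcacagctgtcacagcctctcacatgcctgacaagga
Hey1 at 39.2 kb upstream, chr3:8706322-8706494: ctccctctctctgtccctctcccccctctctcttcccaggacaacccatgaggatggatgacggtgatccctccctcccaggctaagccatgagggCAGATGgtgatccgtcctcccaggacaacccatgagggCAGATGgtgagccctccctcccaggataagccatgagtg
Heyl intron at 6.0 kb, chr4:123239510-123239800: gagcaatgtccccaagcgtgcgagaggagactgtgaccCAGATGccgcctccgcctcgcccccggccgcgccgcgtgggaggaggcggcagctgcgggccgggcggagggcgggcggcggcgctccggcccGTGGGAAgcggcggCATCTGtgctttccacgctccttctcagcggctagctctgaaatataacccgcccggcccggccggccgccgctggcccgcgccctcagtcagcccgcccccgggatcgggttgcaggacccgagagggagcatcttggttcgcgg
Heyl intron at 6.6 kb, chr4:123239969-123240265: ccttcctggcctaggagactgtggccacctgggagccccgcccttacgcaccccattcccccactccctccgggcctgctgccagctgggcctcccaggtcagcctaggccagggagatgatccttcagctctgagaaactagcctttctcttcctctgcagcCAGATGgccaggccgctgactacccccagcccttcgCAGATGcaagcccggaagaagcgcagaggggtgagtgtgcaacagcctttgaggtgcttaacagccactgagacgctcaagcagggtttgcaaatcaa
Id1 at 90 bp upstream, chr2:152736080-152736250: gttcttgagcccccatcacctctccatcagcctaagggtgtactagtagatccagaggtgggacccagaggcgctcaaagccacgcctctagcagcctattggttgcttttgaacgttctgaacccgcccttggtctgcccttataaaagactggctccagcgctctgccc
Hey2 control-only, chr10:30843189-30843291: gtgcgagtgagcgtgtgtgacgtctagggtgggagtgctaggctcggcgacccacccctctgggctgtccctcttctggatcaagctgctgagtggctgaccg
Id1 Ngn3-OE-only, chr2:152704319-152704475: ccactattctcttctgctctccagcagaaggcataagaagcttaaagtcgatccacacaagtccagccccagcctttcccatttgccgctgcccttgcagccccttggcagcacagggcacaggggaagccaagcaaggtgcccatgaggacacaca

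Hes5, Hey1, Hey2, Heyl, Id1 and Id3 had peaks with the RBPJ core within 100 bp of the control summit. At the Hes1 start-site peak the core lay within 100 bp of the Ngn3-OE summit and farther from the control summit. The Hey1 peak at 39.2 kb held 2 E-box cores in a repeated stretch, and both Heyl peaks held 2. The intron label of the Heyl peak at 6.6 kb is that of its control summit, and its Ngn3-OE summit lay in a coding exon. Neither of the printed one-library peaks held either motif inside the printed interval. These are letter matches and not binding sites.

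The loci were rich in open chromatin, and most of their peaks were in both libraries. The members had a median of 12 control and 11.2 Ngn3-OE peaks per 100 kb, against 6.83 and 7.46 over 21938 protein-coding genes with the same flanks. Id3 had the highest control density, with 18.6 peaks per 100 kb, above 96.6% of protein-coding genes. Hes5 with 17.7 and Id1 with 16.8 followed, and Id4 with 5.73 and Hey1 with 5.77 lay below the median gene. Peaks of neighbouring genes are part of these counts, since every window held between 2 and 7 other genes. Of the control peaks, 15 lay within 1 kb of the member's own start site and 15 within 1 kb of another gene's start site. A further 5 lay elsewhere in the member's body, and 69 lay outside it and over 3 kb from any start site.

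**Figure D1:**
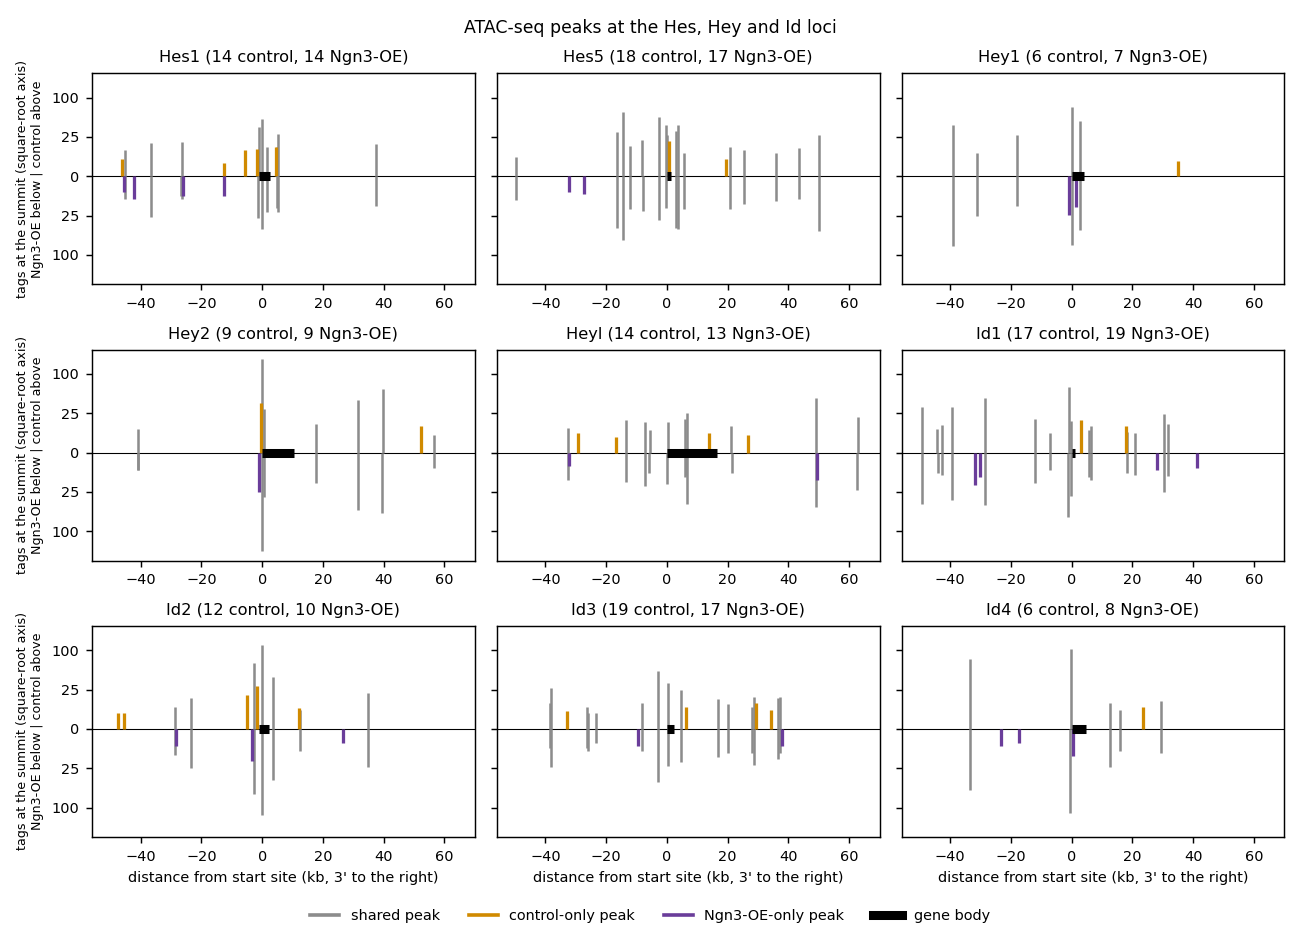
Peaks of the 9 loci by distance of the summit from the member's start site (kb, downstream to the right), with tags at the summit on a square-root axis, control above the line and Ngn3-OE below. Grey marks shared peaks, orange the 26 control-only and purple the 23 Ngn3-OE-only peaks; the tallest bars, the start sites of Hey2, Id2 and Id4, are grey and of like height on both sides.

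Shared peaks were those with 1 bp or more in common with the other list. Of the 115 control peaks, 26 were control-only, or 22.6% (95% Wilson interval 15.9 to 31.1), against 21.7% of all control peaks. Of the 114 Ngn3-OE peaks, 23 were Ngn3-OE-only, or 20.2% (13.8 to 28.5), against 26.6% of all Ngn3-OE peaks. The members' shares lay near these backgrounds, with each background inside the interval. The Hes genes had 7 control-only and 6 Ngn3-OE-only peaks, the Hey genes 7 and 5, and the Id genes 12 and 12. Peaks of only 1 library were weak: their median was 7.5 tags at the summit in control and 5 in Ngn3-OE, while shared peaks had 16 and 17. Tags at the summit are the whole number of reads or fragments stacked there, solved from the fold enrichment and the p-value that the peak caller wrote. The sources used here do not say whether it counted fragments or single read ends. If both ends of a fragment were counted, the exact intervals below would be too narrow.

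At shared peaks the tags of both libraries were compared as a log2 ratio of Ngn3-OE to control, after division by the ratio of the lowest backgrounds of the lists (0.983). Of the 89 shared control peaks, 67 had at least 20 tags over both libraries. Among these, 10 were at least 1.5-fold higher in Ngn3-OE (14.9%; 18.8% of all 55013 such peaks), 9 were at least 1.5-fold lower (13.4%; 10.2% of all), and 48 lay between. The median log2 ratio was 0.02, with a range of −1.64 to 1.5, and that of all shared peaks was 0.13. Measured from this median of all peaks, 8 member peaks were higher, or 11.9% (6.18 to 21.8), against 13.5% of all peaks, and 13 were lower, or 19.4% (11.7 to 30.4), against 13.8%. Each interval included its background, and the description that follows is of single loci.

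**Figure D2:**
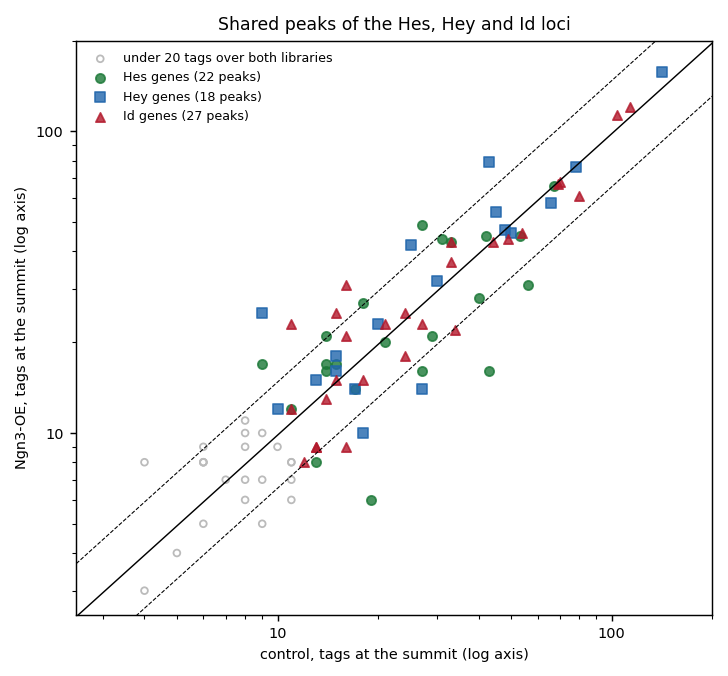
Tags at the summit in control (x) and Ngn3-OE (y) for the 89 shared peaks of the 9 loci, on log axes. The solid line is equal signal after scaling and the dashed lines are 1.5-fold; of the 67 filled points, 10 lie above the upper and 9 below the lower dashed line, and the 3 peaks over 100 tags in both libraries lie along the solid line.

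Hes1, the Notch effector that oscillates in neural progenitors, lies at chr16:30064384-30067796 on the plus strand. It had 14 peaks in each library, 5 of them control-only and 4 Ngn3-OE-only. Its strongest start-site peak, printed above and in an intron of a longer Hes1 transcript, had 53 tags in control and 45 in Ngn3-OE, a log2 ratio of −0.21 (95% exact interval −0.82 to 0.39). A second peak 958 bp upstream had 40 tags in control, and the Ngn3-OE peak it overlapped had 28, with summits 253 bp apart (log2 ratio −0.49, −1.24 to 0.24). Both start-site intervals included 0. At this locus, 26.5 kb upstream of Hes1 and 686 bp from the start of the noncoding gene 9030404E10Rik, a control peak of 19 tags overlapped a pair of Ngn3-OE peaks. The one with the longest overlap had 6 tags (log2 ratio −1.64, −3.25 to −0.26) and the other 8 tags (−1.22, −2.62 to 0.03), so that the interval excluded 0 against the first alone. The local background there was also lower, at 0.688 tags in control and 0.293 in Ngn3-OE, and its part in the ratio was not tested. An Ngn3-OE-only peak of 6 tags lay 326 bp from the control peak, 106 bp from the same noncoding start. Higher signal was found at 36.5 kb upstream, with 18 and 27 tags (0.61, −0.30 to 1.56), and over the coding exon 1685 bp downstream of the start, with 14 and 21 tags (0.61, −0.43 to 1.70). Neither interval excluded 0. The peaks 5.0 and 5.2 kb downstream had 14 and 16 tags at the nearer one and 29 and 21 at the other, both within 1.5-fold.

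Hes5, a Notch target at chr4:154960923-154962371 on the plus strand, had 18 control and 17 Ngn3-OE peaks, and its peaks nearest the start were lower in Ngn3-OE. The peak 208 bp upstream had 43 tags in control and 16 in Ngn3-OE, a log2 ratio of −1.40 (−2.33 to −0.54). The peak 15 bp into the gene had 27 tags in control; it overlapped the same Ngn3-OE peak of 16 tags, so both control peaks were set against 1 Ngn3-OE peak, whose summit was 307 bp from the second one (−0.73, −1.72 to 0.21). Further upstream, at 2.5 kb, the tags were 56 in control and 31 in Ngn3-OE (−0.83, −1.51 to −0.17). A control-only peak of 20 tags lay 550 bp into the gene, over coding exon, with the nearest Ngn3-OE peak 443 bp away. The local background at the start site was 4.19 tags in control and 3.00 in Ngn3-OE, and at 2.5 kb upstream it was 2.96 and 1.66. Its part in the ratios was not tested.

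The lower signal did not extend over the Hes5 window. At 14.4 kb upstream, the strongest peak of the locus had 67 tags in control and 66 in Ngn3-OE (0.00, −0.51 to 0.51). The peak 16.4 kb upstream had 31 and 44 tags (0.53, −0.17 to 1.24). Beside the start of the next gene, Pank4, at peaks 3.1 and 3.5 kb downstream of the Hes5 start, the tags were 33 and 43 at one peak and 42 and 45 at the other. A pair of peaks inside or beside other genes were at least 1.5-fold higher: 5.5 kb downstream in a Pank4 intron, with 9 and 17 tags (0.94, −0.30 to 2.29), and 50.2 kb downstream near the start of Plch2, with 27 and 49 (0.88, 0.18 to 1.62). A Plch2 intron peak 43.6 kb downstream had 13 and 8 tags (−0.68, −2.15 to 0.70). Of the 14 Hes5 peaks with enough tags, 4 were lower and 2 higher, and the median log2 ratio was 0.14.

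Hey1, a bHLH repressor whose gene is at chr3:8663359-8667256 on the minus strand, had few peaks, 6 in control and 7 in Ngn3-OE, but the highest ratio of all members. Its start-site peak was nearly equal, with 78 tags in control and 76 in Ngn3-OE (−0.01, −0.49 to 0.46), and so was the coding exon peak 2.6 kb downstream, with 50 and 46. Upstream of the gene the peaks went both ways. At 31.2 kb the tags were 9 in control and 25 in Ngn3-OE (1.5, 0.35 to 2.78), and at 39.2 kb, over the pair of E-box cores printed above, they were 43 and 79 (0.90, 0.35 to 1.47). At 18.1 kb, where the RBPJ core was within 100 bp of the summit, they were 27 and 14 (−0.92, −1.97 to 0.06). The local background moved in the same directions, with 0.261 tags in control and 0.335 in Ngn3-OE at 31.2 kb, 0.680 and 1.03 at 39.2 kb, and 0.757 and 0.419 at 18.1 kb, and its part in the ratios was not tested. All 3 upstream peaks are intergenic. An Ngn3-OE-only peak of 24 tags lay 798 bp upstream, with an E-box core within 100 bp of its summit. The nearest control peak was 391 bp away.

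Hey2, at chr10:30832359-30842801 on the minus strand, had the strongest peak of the 9 loci. Its peak 138 bp upstream of the start had 141 tags in control and 157 in Ngn3-OE (0.18, −0.16 to 0.52) and was stronger than 99.2% of control and 99.6% of Ngn3-OE peaks by −log10 q. None of the 5 Hey2 shared peaks with enough tags passed 1.5-fold: the first intron peak 663 bp downstream had 30 and 32 tags, the intergenic one 31.7 kb downstream 45 and 54, and the Ncoa7 start 66 and 58. The control-only peak with the most tags and the highest −log10 q of all members lay upstream of the Hey2 start, at 442 bp, with 40 tags, a −log10 q of 19.6 and a gap of 114 bp to the nearest Ngn3-OE peak. The weakest of 245 Ngn3-OE peaks over a like background had 16 tags. An Ngn3-OE-only peak of 25 tags lay 1143 bp upstream, 621 bp from the nearest control peak. Another control-only peak, with 11 tags and a −log10 q of 13.0, was in an Ncoa7 intron 52.2 kb downstream, 4.10 kb from any Ngn3-OE peak.

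Heyl, at chr4:123233556-123249875 on the plus strand, had 14 control and 13 Ngn3-OE peaks and a weaker start site than Hey1 and Hey2, with 15 tags in control and 16 in Ngn3-OE (0.12, −0.99 to 1.24). Within its own body, neighbouring peaks differed in opposite directions. The peak 6.0 kb downstream, with an RBPJ core, had 18 and 10 tags (−0.82, −2.10 to 0.37). It also overlapped another Ngn3-OE peak, of 8 tags. The peak 6.6 kb downstream had 25 and 42 tags (0.77, 0.02 to 1.55). Its control summit lay in an intron and its Ngn3-OE summit, 59 bp away, in a coding exon. Only the interval of the peak at 6.6 kb excluded 0, and it included the 0.13 median of all shared peaks. The strongest Heyl-window peak, at the start of Pabpc4, was nearly equal, with 48 and 47 tags, and an Ngn3-OE-only peak of 12 tags lay beside it, 274 bp from the nearest control peak.

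**Figure D3:**
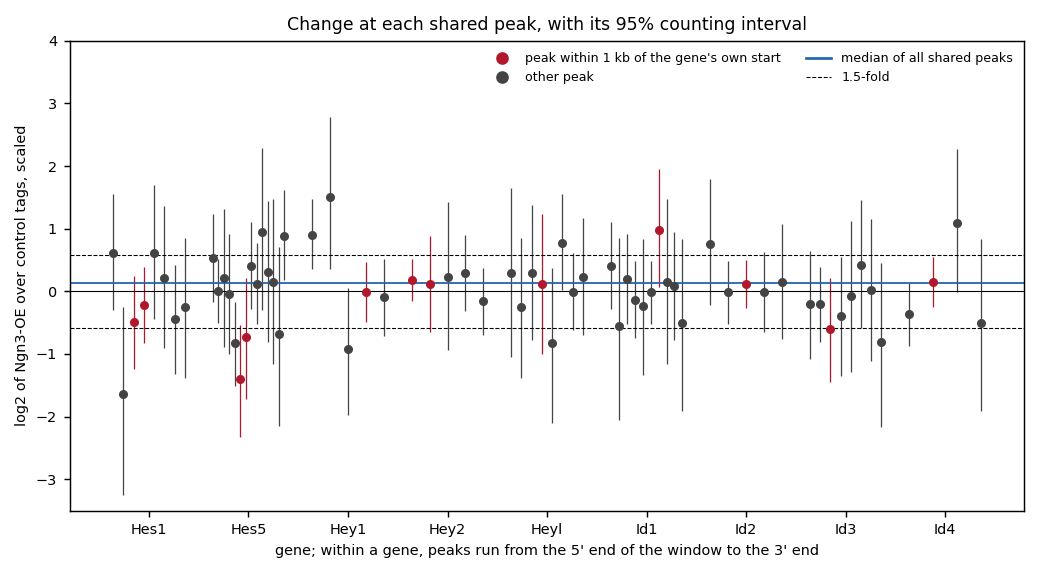
Log2 ratio of Ngn3-OE to control tags at the 67 shared peaks with 20 or more tags, by gene, with exact 95% intervals for counting error. Red points are peaks within 1 kb of the gene's own start, dashed lines 1.5-fold and the blue line the median of all shared peaks (0.13); the Hes5 start-site points lie lowest among the red ones and that of Id1 highest.

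Id1, a BMP target at chr2:152736251-152737410 on the plus strand, was the member whose start-site peak was at least 1.5-fold higher in Ngn3-OE. The peak 90 bp upstream, printed above, had 16 tags in control and 31 in Ngn3-OE (0.98, 0.06 to 1.95). Its interval excluded 0 but included the 0.13 median of all shared peaks. The stronger peak 1046 bp upstream did not share the higher signal, with 69 and 67 tags (−0.02, −0.53 to 0.49). The other 8 Id1 peaks with enough tags lay between −0.56 and 0.41 on the log2 scale; at 28.4 kb upstream, in H13, the tags were 49 and 44. The Ngn3-OE-only peak with the highest −log10 q of all members was in an H13 intron 31.9 kb upstream of Id1, with 17 tags, fewer than those of Hey1 and Hey2 above, a −log10 q of 12.6 and 3.25 kb to the nearest control peak. A further Ngn3-OE-only peak, of 10 tags, lay 30.2 kb upstream, and both had an E-box core within 100 bp of the summit. Control-only peaks were found 2974 bp downstream, with 17 tags, and 85 bp from the Cox4i2 start, with 11.

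Id2, at chr12:25093799-25097140 on the minus strand, had strong peaks of like height in both libraries. The start-site peak had 113 tags in control and 121 in Ngn3-OE (0.12, −0.26 to 0.51), the peak 2.8 kb upstream 70 and 68, and the peak 3.7 kb downstream 44 and 43. A peak 23.3 kb upstream with an E-box core had 15 and 25 tags (0.76, −0.22 to 1.79). Id2 had 5 control-only peaks, the most of any member together with Hes1. The strongest of them had 30 tags and a −log10 q of 11.6 and lay 716 bp from the nearest Id2 start, 908 bp from an Ngn3-OE peak. Those 5.1 kb upstream and 12 kb downstream had 19 and 7 tags.

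Id3, at chr4:136143497-136145755 on the plus strand, had a start-site peak of 34 tags in control and 22 in Ngn3-OE (−0.60, −1.45 to 0.21). Its strongest peak, 3.0 kb upstream, had 54 and 46 tags (−0.21, −0.81 to 0.39), and the one 4.5 kb downstream 24 and 18. These values were lower in Ngn3-OE but each interval included 0. The median log2 ratio of its 8 peaks with enough tags was −0.21, and none of these was 1.5-fold higher. The other one past 1.5-fold, in an intron of E2f2 37.1 kb downstream, had 16 and 9 tags (−0.81, −2.17 to 0.46). Control-only peaks of 8 and 11 tags lay 6.4 kb downstream and at the E2f2 start.

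Id4, at chr13:48261228-48266026 on the plus strand, had 6 control and 8 Ngn3-OE peaks. Its start-site peak had 104 tags in control and 113 in Ngn3-OE (0.14, −0.25 to 0.54), stronger than 98.8% of control peaks by −log10 q. The peak 33.4 kb upstream, in introns of noncoding genes, had 80 and 61 tags (−0.37, −0.87 to 0.13). A peak 12.7 kb downstream, 34 bp from the start of the noncoding gene A330048O09Rik, had 11 and 23 tags (1.09, −0.01 to 2.27). A control-only peak of 8 tags lay 23.4 kb downstream, 5.80 kb from any Ngn3-OE peak.

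Across the members' own start sites, 12 shared peaks had enough tags. Of these 1 was higher (Id1; 11.4% of all such peaks within 1 kb of any start site were higher) and 3 were lower (both Hes5 peaks and Id3; 5.17% of all). The 12 peaks are few and 2 of the 3 lower ones share an Ngn3-OE peak. Over 3 kb from any start site and outside the member's own body, 4 of 35 were higher and 3 lower. Of all shared peaks over 3 kb from any start site, gene bodies included, 23.6% were higher and 13.7% lower. The Heyl peaks at 6.0 and 6.6 kb are also over 3 kb from any start site and are not among the 35. Of the 67 shared peaks of the 9 loci with enough tags, 5 were higher and 3 lower with a counting interval that excluded 0. The Hes1 peak above was among the latter. Of all 55013 such peaks, 5.57% were higher and 3.62% lower in this way. Of the changed member peaks alone, that is 5 of the 10 higher and 3 of the 9 lower. Over all shared peaks it is 3063 of the 10336 higher and 1990 of the 5601 lower. When the median of all shared peaks replaced 0, the intervals excluded it at 3 higher and 4 lower peaks of the 67, against 3.45% and 4.8% of all.

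At a −log10 q of 5 or more, 11 of 89 control peaks were control-only, or 12.4% (7.04 to 20.8), against 7.89% of all control peaks past that limit. Of the Ngn3-OE peaks it was 8 of 89, or 8.99% (4.63 to 16.7), against 10.3%. They had 7 to 40 tags at 6 genes and 6 to 25 tags at 5 genes. Of them, 5 and 4 lay under 500 bp from a peak of the other library. The remaining 15 peaks in each list had 3 to 14 tags in control and 3 to 17 in Ngn3-OE, with a median of 5 in both.

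The RBPJ core GTGGGAA lay within 100 bp of the control summit at 15 of 89 shared peaks, or 16.9% (10.5 to 26), against 4.43% of all 91741 shared peaks. The 15 peaks were spread over Hes5 with 6, Heyl with 3, Hey2 and Id1 with 2 each, and Hey1 and Id3 with 1 each. Near start sites the share was 5 of 25, against 3.75% of all shared peaks there, and over 3 kb from any start site it was 8 of 55, against 4.69%. Read at the Ngn3-OE summits, it was at 15 of 91 shared peaks, 2 of them at Hes1, against 4.43% of all. One-library peaks were near their backgrounds, with 1 of 26 control-only peaks (4.66% of all) and 0 of 23 Ngn3-OE-only peaks, which allows a share of up to 13.0% (4.29% of all). The GGCGCC palindrome of BMP-responsive elements was at 20 of 89 shared peaks, or 22.5% (15 to 32.2), against 7.36%. Within 1 kb of start sites it was at 7 of 25, or 28% (14.3 to 47.6), an interval that included the 17.6% of all shared peaks there, and over 3 kb from any start site at 8 of 55, or 14.5% (7.56 to 26.2), against 3.27%. The shared member peaks had a median G and C content of 58.2% against 52.2% of all. It was 60.7% against 63.7% near start sites and 56.2% against 49.8% over 3 kb away. The part of G and C content in the motif shares was not tested.

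Motif and ratio were also crossed, a choice made after both had been seen. Of the 11 such peaks with enough tags, from 5 genes, 0 were 1.5-fold higher and 5 were lower: the 3 nearest the Hes5 start, the Hey1 peak at 18.1 kb and the Heyl peak at 6.0 kb. Of these 5 lower peaks, 2 had an interval that excluded 0, 2 were set against the same Ngn3-OE peak, and 2 also had SOX letters. The 11 peaks' median log2 ratio was −0.24, with a range of −1.40 to 0.20. Over all 2339 shared peaks with the core, the median was 0.13, 19.9% were higher and 12.4% were lower. Read at the Ngn3-OE summits, each against its control peak, 0 of 11 were higher and 5 lower, with 18.5% and 13.7% of all such peaks. Other peaks with the core were the strongest Hes5 peak at 14.4 kb, the Hey2 start site and the Heyl start site, with ratios of 0.00, 0.18 and 0.12.

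The E-box core CATCTG, which bHLH factors of the Ngn type bind, was at 28 of the 138 distinct member peaks, or 20.3% (14.4 to 27.8), against 22.2% of all peaks. By class it was at 8 of 23 Ngn3-OE-only peaks, or 34.8% (18.8 to 55.1; 25.3% of all Ngn3-OE-only peaks), at 1 of 26 control-only peaks, or 3.85% (0.682 to 18.9; 20.1% of all), and at 21.3% of shared peaks (14.1 to 31.0; 21.6% of all). The control-only interval lay below its background at this window, but included it with 50 bp (0.682 to 18.9; 12.2% of all) and with 250 bp (8.51 to 37.9; 36.7% of all). The Ngn3-OE-only interval included its background. Of 14 shared member peaks with the core and enough tags, 3 were higher and 4 lower, with a median of −0.04. Over all 10703 such peaks 25.7% were higher and 9.23% lower, with a median of 0.24. The SOX letters CCATTGT or CCTTTGT were at 8 of 138 member peaks, or 5.80% (2.97 to 11.0), against 8.32%. Of the 4 shared ones with enough tags, 1 was higher and 2 lower, with a median of −0.53; over all 4137 such peaks 15.1% were higher and 25.3% lower. The N-box CACNAG, which Hes proteins bind, was at 30.3% of shared member peaks (21.8 to 40.5) and 38.9% of all shared peaks.

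**Figure D4:**
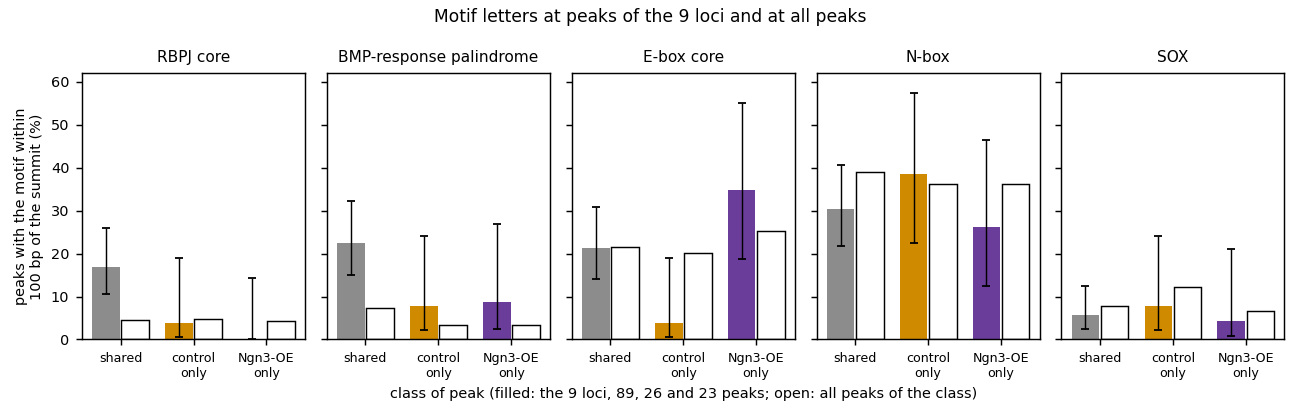
Percent of peaks with each motif within 100 bp of the summit, by class of peak. Filled bars are the 9 loci (89 shared, 26 control-only and 23 Ngn3-OE-only peaks) with 95% Wilson intervals, and open bars are all peaks of the class; the RBPJ core and the palindrome stand above the open bar at shared peaks.

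RefSeq promoters, 250 bases upstream of a start, were matched by symbol for 5 members (Hes5, Hey2, Id2, Id3 and Id4); Hes1, Hey1, Heyl and Id1 had no entry. The Hes5 promoter held 2 RBPJ cores, 226 and 83 bases before the start, 4 GGCGCC palindromes and 2 matches of the SOX letters, 173 and 119 bases before the start, and Hey2 held 1 RBPJ core 207 bases before its start. Id2 and Id4 held 1 palindrome each, Id4 also 1 N-box, and Id3 none of the motifs. Of 32851 RefSeq promoters, 5.42% held the RBPJ core, 9.59% the palindrome, 7.92% the SOX letters and 36.7% the N-box. The windows of all 5 overlapped a peak in both libraries. The Hes5 window was the one over which 2 control peaks but 1 Ngn3-OE peak lay.

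The other genes of these pathways were counted in the same way, to be read against 18.8% higher, 10.2% lower and a median of 0.13 over all shared peaks. The 22 genes of Notch signalling (receptors, ligands, RBPJ, coactivators and modifiers) had 213 shared peaks with enough tags in windows of the same size, of which 27 were higher (12.7%) and 19 lower (8.92%), with a median log2 ratio of 0.02. The 15 genes of BMP signalling had 110, with 18 higher (16.4%), 11 lower (10%) and a median of 0.04. The other 7 Hes-related genes had 80, with 11 higher (13.8%), 12 lower (15%) and a median of 0.04. Their control-only shares were 22.4%, 20.8% and 13.9%, against 21.7% of all control peaks, and their Ngn3-OE-only shares 23.8%, 25.4% and 17.8%, against 26.6%. Both shares of the other Hes-related genes were the lowest of the 3 lists and below the background.

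The cells were checked against marker genes by a peak within 1 kb of a start site. All 9 progenitor markers reported, among them Pax6, Rax and Sox2, and all 4 photoreceptor precursor markers had one in both libraries. Microglial markers had 1 of 4 in each, with none at Cx3cr1, Csf1r and Aif1, and lens markers had 0 of 2. Endothelial markers had 2 of 4 in control and 1 of 4 in Ngn3-OE, both astrocyte markers had a peak in both libraries, and of 4 genes of unrelated tissues 1 had one. An accessible start site does not show that a gene was transcribed, and a change in the share of cells cannot be told apart from a change within cells.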

How the data were processed

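ATAC-seq of 1 control and 1 Ngn3-OE library of sorted late RPCs was used, grouped by sample title. Per the study's methods, the authors trimmed reads with Trimmomatic, aligned them to mm10 with Bowtie2, removed duplicates, mitochondrial and blacklisted reads, kept short fragments, shifted reads to the Tn5 cut and ran MACS2 in each library separately. The lists thus map short, nucleosome-free fragments. For each peak, the deposited files give an integer score, a fold enrichment over local background, the −log10 p and −log10 q, and the summit offset; the lowest −log10 q was 1.30. Read depth is unknown from these lists, so precision is given by tags at the summit.

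Lines with equal intervals on chromosomes 1 to 19, X and Y were merged (keeping the summit of highest −log10 q). From the 128853 control and 136761 Ngn3-OE lines this left 117165 and 124935 peaks, with lines off these chromosomes (159 and 150) left out. The whole-number tags and their background were those at which the Poisson probability and the enrichment equal the deposited −log10 p and fold, with a whole number recovered for 100% of peaks within a tolerance of 0.01; the solver was tested on simulated data. A shared control peak was paired with the Ngn3-OE peak of longest overlap. Genes came from GENCODE M21, and distances run from the start of the main transcript. Shares have 95% Wilson intervals and tag ratios exact Clopper-Pearson intervals, both for counting error only. With 1 library a group no test was possible and no p-value is given. Python 3.11.15, numpy 2.4.6, pandas 2.3.3 and scipy 1.17.1 were used.

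The 9 members, the pathway and marker lists and the motifs were chosen with earlier results of these data known. Peaks were named by rule: the strongest start-site peaks, one-library peaks with a −log10 q of 5 or more, the strongest distal shared peak and up to 3 most changed shared peaks of each member; other peaks named beside them were chosen after their values were seen. RNA-seq data were not analysed here. A single gene of the progenitor marker list and the sequence of 1 changed peak are not reported here.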

Additional observations from a re-analysis of the deposited data

How the results depend on the processing

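The counts of one-library peaks depended on the window and on the peak threshold. Control-only peaks numbered 11 of 48 with flanks of 10 kb and 43 of 205 with 100 kb, against 21.7% of all control peaks. Ngn3-OE-only peaks numbered 6 of 43 and 45 of 207, against 26.6% of all Ngn3-OE peaks. Where the counted list was limited to a −log10 q of 5 or more, 11 of 89 and 8 of 89 were left, against 7.89% and 10.3% of all. With that limit in both lists, 16 of 89 were control-only and 16 of 89 Ngn3-OE-only. Requiring an overlap of 50% of both peaks gave 35 Ngn3-OE-only peaks of 114. For these last 2 rules no share over all peaks is given. The flanks and the limit on the counted list change how many peaks enter; the overlap rule and the limit on the other list change which peaks have a partner. Higher and lower shared peaks numbered 5 and 5 of 32 with flanks of 10 kb, and 22 and 12 of 118 with 100 kb. Over all shared peaks 18.8% were higher and 10.2% lower. With at least 40 tags they numbered 6 and 5 of 41, and at 2-fold 2 and 2 of 67. No share over all peaks is given for these 2 settings. Scaling to the median of all shared peaks turned the median log2 ratio from 0.02 to −0.11 and gave 8 higher and 13 lower peaks. Pairs with summits within 100 bp gave 10 and 8 of 61, and reading from the Ngn3-OE list gave 10 and 10 of 68. Pairing with the overlapping Ngn3-OE peak of most tags gave 10 and 9 of 67. These 3 alternatives were chosen after seeing the data. For motifs, the E-box core share was 33.3% with 250 bp, and the SOX share 2.90% with 50 bp and 15.9% with 250 bp on each side, as wider windows hold more letters. Over the other alternatives the counts stayed within 1.5 times and the median between −0.01 and 0.13. No paired analysis was possible because each group had 1 library, and no replicate could be left out. Differences of about 1.5-fold at peaks of 20 to 40 tags lie within counting error.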
